A study of Homo sapiens with 4 samples.

Results

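Deoxynucleotide synthesis enzymes are described here in serum-starved RPE-1 cells exposed to merbarone. The 9 genes, RRM1, RRM2, TYMS, TK1, DUT, DCTPP1, SAMHD1, DCK and CTPS1, were chosen by symbol from the 23459 genes listed in the deposited count files. All 9 were found, and all 9 are among the 12559 genes with enough reads to be tested, those above a CPM (read count scaled to a common sequencing depth) of 1 in at least 2 libraries. RPE-1 (hTERT RPE-1, wild type) is a human epithelial line from the retinal pigment epithelium, immortalized with telomerase. The cells were held for 48 h in medium with 0.1% serum, a step the study used to stop them in G0/G1, and then received 200 μM merbarone, a catalytic inhibitor of DNA topoisomerase II, for 4 h (2 libraries) or 8 h (2 libraries). Both groups therefore share the cell line, the starvation and the drug. No untreated cells were analysed here, so time of exposure and time in low serum cannot be told apart.

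Cells make deoxynucleotides (dNTPs), the building blocks of DNA, in a few connected steps. Ribonucleotide reductase, built from the large subunit RRM1 and a small subunit, RRM2 or RRM2B, converts ribonucleotides to deoxyribonucleotides. TYMS methylates dUMP to dTMP with a folate cofactor, and DUT supplies dUMP by splitting dUTP, which also keeps uracil out of DNA. TK1 and DCK salvage deoxynucleosides from outside the pathway, CTPS1 makes CTP from UTP, and SAMHD1 and DCTPP1 break dNTPs down. In cycling cells, RRM2, TYMS and TK1 are textbook genes of the G1 to S transition, whereas RRM2B is a target of p53 and serves cells outside S phase.

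From 4 h to 8 h, transcripts of 7 of these 9 enzymes fell, against 18.8% of all tested genes. The enzymes were chosen with earlier results of these data known, so this is not an independent comparison with all genes. RRM2 fell most, 2.24-fold, and RRM1, DCTPP1 and SAMHD1 fell between 1.67-fold and 1.83-fold. CTPS1, TYMS and TK1 fell less, between 1.23-fold and 1.36-fold, and DUT and DCK did not pass the test. RRM2B, the alternative small subunit, rose 1.5-fold over the same hours.

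The depth was between 8064450 and 10324697 counts per library, so that a CPM of 1 is between 8.06 and 10.3 counts. The replicate variation estimated by edgeR was a coefficient of variation of 6.52%. The study calls its replicates biological, but how they were cultured is not given here, so p-values measure only the spread between these libraries, which may be technical. As a check of the line, VIM, KRT8 and KRT18 were abundant in every library (1927 counts or more), while the visual cycle gene RPE65 had 2 to 7 counts, BEST1 2 to 6, TYRP1 1 to 3 and RLBP1 0 to 2, so that these markers of the differentiated epithelium are near 0. MITF and OTX2, transcription factors of the pigment epithelium, had 669 to 882 and 132 to 193 counts. The leukocyte marker PTPRC had 3 to 8 counts and the endothelial markers PECAM1 and CDH5 0 to 3, whereas CD68, also listed as a leukocyte marker, had 575 to 654.

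The start regions of 5 of the genes are shown first, since RRM2 and RRM1 encode partner subunits, TK1 and TYMS stand for the S phase enzymes that changed little, and DUT is the gene with the smallest change. Each line gives the 150 bases before an annotated transcription start, read from RefSeq (GRCh38.p14) in the direction of the gene. Capitals mark matches to CCAAT (reverse strand ATTGG), the box bound by the factor NF-Y, to TTTGAA (reverse TTCAAA), a cell cycle element, and to TTTCGCGC, TTTGGCGC or TTCCCGCC (reverse GCGCGAAA, GCGCCAAA or GGCGGGAA), letters of E2F sites.
RRM2, chr2:10122589-10122738, plus strand: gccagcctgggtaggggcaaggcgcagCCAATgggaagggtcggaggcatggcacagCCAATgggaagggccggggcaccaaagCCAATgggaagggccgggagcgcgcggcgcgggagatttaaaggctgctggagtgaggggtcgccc
RRM1, chr11:4094535-4094684, plus strand: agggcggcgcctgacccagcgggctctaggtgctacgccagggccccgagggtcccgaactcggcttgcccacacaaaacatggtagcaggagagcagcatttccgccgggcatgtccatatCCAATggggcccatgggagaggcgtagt
TK1, chr17:78187053-78187202, minus strand: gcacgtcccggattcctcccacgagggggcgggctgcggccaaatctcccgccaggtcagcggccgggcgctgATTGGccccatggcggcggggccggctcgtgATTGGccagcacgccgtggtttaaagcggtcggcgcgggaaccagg
TYMS, chr18:657503-657652, plus strand: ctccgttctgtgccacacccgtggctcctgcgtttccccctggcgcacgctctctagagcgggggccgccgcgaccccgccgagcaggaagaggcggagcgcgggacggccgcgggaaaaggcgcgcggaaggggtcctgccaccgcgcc
DUT, chr15:48332047-48332196, plus strand: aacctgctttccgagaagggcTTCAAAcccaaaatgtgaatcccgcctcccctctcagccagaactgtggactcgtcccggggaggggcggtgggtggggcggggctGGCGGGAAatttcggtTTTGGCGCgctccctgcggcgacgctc

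The RRM2 stretch holds 3 CCAAT boxes on the plus strand, at −123 to −119, −93 to −89 and −66 to −62 from the start. RRM1 has 1, at −28 to −24, and the second annotated start of TK1 has 2 on the reverse strand, at −77 to −73 and −46 to −42. The TYMS window had no match to any of these letters. For DUT, the fourth of its annotated starts is shown, with 2 E2F matches at −43 to −36 and −27 to −20, and the counts do not separate its starts. The other annotated starts of DUT and TK1 are not shown and had no match to any of these letters. For these genes, the start shown is thus the one that held matches. Over the whole windows, from 250 bases before to 50 after each start, CCAAT was found for RRM1, RRM2, SAMHD1 and TK1, 4 of the 9 genes, against 39.7% of the 27305 genes with a window of this length. TTTGAA was found for DUT and RRM1, 2 of 9, against 18.2% of all genes. Any of the E2F letters were found for DCK, DUT and RRM1, 3 of 9, against 5.11%. These shares are over all genes with a window, not over the tested genes alone. A gene with more annotated starts, such as DUT, also has more windows in which to match. The log2 fold change, 8 h over 4 h, ran from −1.17 (RRM2) to −0.30 (TK1) for the genes with CCAAT. For those with E2F letters it ran from −0.77 (RRM1) to −0.06 (DUT), and RRM1 is in both groups. DCTPP1, CTPS1 and TYMS had no match to any of these letters, and their values were −0.87, −0.44 and −0.35. These matches describe letters only, and whether they bear on the changes was not tested.

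The question was which transcripts of dNTP synthesis enzymes changed between the time points. Only RNA was measured, so protein levels, enzyme activities and dNTP pools are not known here. TMM-normalized counts, which are raw counts scaled to a common library size and composition, were compared with edgeR's quasi-likelihood test over the 12559 genes. A gene is said to rise or fall where its Benjamini-Hochberg adjusted p over all these genes was below 0.05, and a differentially expressed gene (DEG) also had an absolute log2 fold change (log2FC) above 1, the study's threshold. At 8 h, 7 of the 9 enzymes fell and 0 rose with edgeR, limma-voom or DESeq2. With edgeR, 18.8% of all tested genes fell and 19.9% rose (38.8% in either direction). Limma-voom called 2339 of the 12559 genes lower and 2483 higher, and DESeq2 called 1498 lower and 1792 higher. At an unadjusted edgeR p below 0.05, 8 enzymes were lower and 0 higher, and the share of all genes at that limit is not given. RRM2 was the 1 DEG of the 9, against 3.88% of all genes that were DEGs lower at 8 h and 1.45% that were DEGs higher. For all 9, both 8 h libraries lay below both 4 h libraries, against 34.9% of all genes (34.8% lay above). The median log2FC of the enzymes was −0.44, with a range from −1.17 to −0.06, and that of all tested genes was −0.002. Summed over the 9 genes, there were 977.2 and 967.4 CPM at 4 h, and 696.2 and 630.4 CPM at 8 h. Scaling by library size alone shifts the median log2FC of all genes to −0.11 and gives 3289 genes lower and 1698 higher, in place of 2367 and 2500. Each of the 9 enzymes kept a negative log2FC under that scaling and under the other settings tried. Since the enzymes were chosen with earlier results of these data known, the shares of all genes are not an independent comparison.

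**Figure D1:**
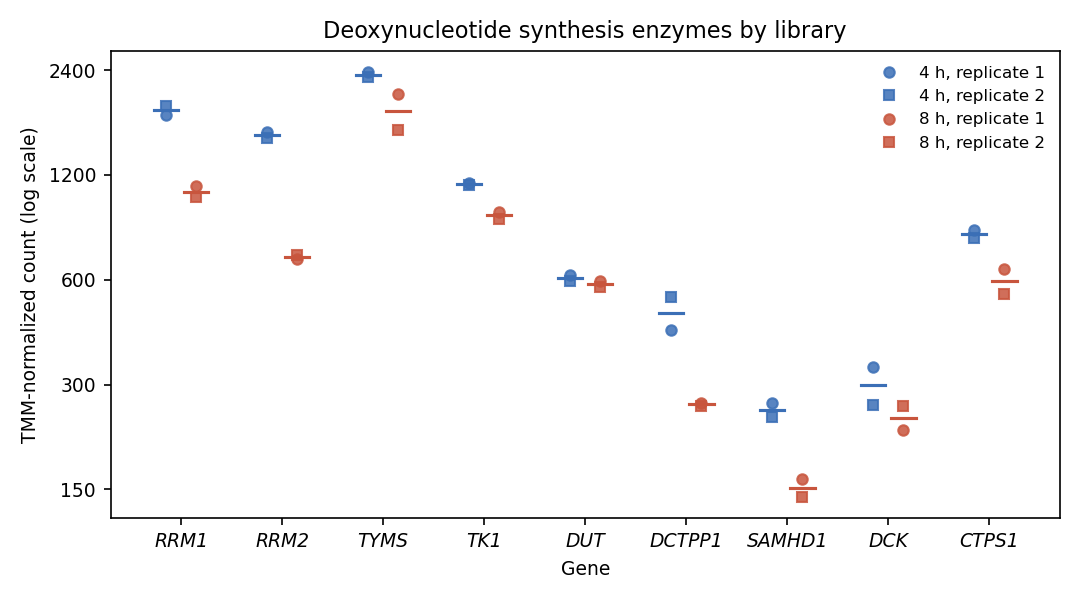
TMM-normalized counts (y axis, log scale) of the 9 enzymes (x axis) in each library, blue for 4 h and red for 8 h, with circles for replicate 1, squares for replicate 2 and a bar for the mean of 2. RRM2 falls from a mean of 1563 to 697.2 while the means of DUT are 607.9 and 584.5, and the DCK libraries nearly touch.

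Transcripts of both main subunits of ribonucleotide reductase fell. RRM2 (chromosome 2, 10260825 to 10351851, plus strand, hg19), the small subunit that limits the enzyme's activity in S phase, had 1592 and 1534 normalized counts after 4 h and 686.3 and 708.2 after 8 h. The libraries of each time lay close together and far from those of the other time. Its log2FC was −1.17 (standard error 0.08, 95% interval −1.34 to −0.99, edgeR adjusted p = 4.85e-09). RRM1 (chromosome 11, 4115937 to 4160162, plus strand), the large subunit that holds the catalytic and regulatory sites, had 1781 and 1897 after 4 h and 1113 and 1037 after 8 h. Its log2FC was −0.77 (standard error 0.08, interval −0.95 to −0.60, edgeR adjusted p = 5.91e-07), and this interval does not reach that of RRM2. Within each library, RRM2 counts for each RRM1 count went from 0.894 and 0.808 to 0.617 and 0.683, a log2 difference of −0.39 (exact two-sided permutation p = 0.333, the smallest that 2 libraries against 2 allow).

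RRM2B went the other way. This p53-inducible small subunit had 1071 and 818.6 normalized counts after 4 h and 1465 and 1368 after 8 h, with both 8 h libraries above both 4 h libraries. Its log2FC was 0.58 (standard error 0.10, edgeR adjusted p = 0.000178), and it ran from 0.40 without replicate 2 of 4 h to 0.78 without replicate 1 of 4 h, both past the test. The balance of the small subunits was also read within each library, where no scaling is needed. There were 1.49 and 1.87 RRM2 counts for each RRM2B count at 4 h, and 0.469 and 0.518 at 8 h. The ratio thus fell 3.39-fold, with a log2 difference of −1.76 (SD 0.24 at 4 h and 0.10 at 8 h, n = 2 each). The exact two-sided permutation test gave p = 0.333, again the smallest possible. Levels per length changed order between the small subunits. RRM2 stood at 50.0 ± 1.32 CPM per kilobase of canonical transcript at 4 h and RRM2B at 20.6 ± 3.89 (SD, n = 2 each), and at 8 h they stood at 22.3 ± 0.50 and 31.0 ± 1.49.

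Transcripts of other partners of the reductase rose as well, that of TXN not under every setting. The electron donors TXN and GLRX and the thioredoxin reductase TXNRD1 were on a list of 4 with RRM2B. With edgeR, all 4 passed the test upwards, where 19.9% of all genes did. This list was also chosen with earlier results of these data known, so the comparison is not independent. With DESeq2, 3 of the 4 passed upwards, as did 1792 of the 12559 genes. TXNRD1 had the largest rise, from 5027 and 5007 normalized counts to 10390 and 8178 (log2FC 0.89, standard error 0.09, edgeR adjusted p = 2.53e-07). TXN had the smallest, from 779 and 747 to 985 and 875 (log2FC 0.29, standard error 0.09, edgeR adjusted p = 0.0167). TXN lost its call under 6 of 12 settings, among them DESeq2 (adjusted p = 0.0622) and edgeR with library size alone (adjusted p = 0.122). These proteins serve many reductions besides that of ribonucleotides.

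TYMS and TK1 fell, and DUT and DCK did not pass the test. TYMS (chromosome 18, 657653 to 673578, plus strand), thymidylate synthase, had 2372 and 2292 normalized counts after 4 h and 2045 and 1619 after 8 h. The 8 h replicates lay further apart than the 4 h replicates, and both were below them. Its log2FC was −0.35 (standard error 0.09, interval −0.54 to −0.15, edgeR adjusted p = 0.00593), and the size rests in part on single libraries. Without replicate 2 of 8 h it was −0.19 (edgeR adjusted p = 0.0737), without replicate 1 of 8 h −0.53 (adjusted p = 4.38e-07), and without replicate 1 of 4 h the adjusted p was 0.0615.

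DUT (chromosome 15, 48623208 to 48635570, plus strand), which supplies the dUMP that TYMS uses, had 619.2 and 596.5 after 4 h and 596.3 and 572.8 after 8 h. The closest libraries of the different times differed by less than 1 normalized count. Its log2FC of −0.06 (standard error 0.10, interval −0.25 to 0.14, edgeR adjusted p = 0.673) did not pass the test, and the interval leaves out a fall of the size seen for RRM1 or RRM2. DUT counts for each TYMS count went from 0.261 and 0.260 to 0.292 and 0.354, a log2 difference of 0.30 (exact two-sided permutation p = 0.333, the smallest possible).

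TK1 (chromosome 17, 76170172 to 76183314, minus strand), the cytosolic thymidine kinase, had 1136 and 1126 normalized counts after 4 h and 940.9 and 895.8 after 8 h. The groups did not overlap, and the difference between times was larger than that between replicates. Its log2FC was −0.30 (standard error 0.08, interval −0.47 to −0.12, edgeR adjusted p = 0.00769). Leaving out replicate 1 or 2 of 4 h raised the adjusted p to 0.0612 and 0.0577, with a log2FC of −0.30 in both. TK2, the mitochondrial thymidine kinase, had 881.2 and 767 after 4 h and 710.8 and 789 after 8 h, with groups that overlap (log2FC −0.14, edgeR adjusted p = 0.269).

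DCK (chromosome 4, 71858255 to 71896631, plus strand), which phosphorylates deoxycytidine and also deoxyadenosine and deoxyguanosine, had 337.4 and 262 after 4 h and 221.9 and 259.7 after 8 h. The lower 4 h library and the higher 8 h library were nearly equal. Its log2FC of −0.32 (standard error 0.14, interval −0.62 to −0.02) had an edgeR adjusted p of 0.0815 and did not pass. The call rests on single libraries and on scaling. Without replicate 2 of 4 h the log2FC was −0.49 (adjusted p = 0.0397), and without replicate 2 of 8 h −0.43 (adjusted p = 0.0211). Without replicate 1 of 4 h it was −0.13 (adjusted p = 0.623), without replicate 1 of 8 h −0.21 (adjusted p = 0.303), and with library size alone −0.43 (adjusted p = 0.0201). Counts of TK1 for each count of DCK went from 3.37 and 4.30 to 4.24 and 3.45, with groups that overlap (log2 difference 0.01, exact two-sided permutation p = 1). The TK1 to TK2 ratio overlapped too, at 1.29 and 1.47 against 1.32 and 1.14 (log2 difference −0.17, exact two-sided permutation p = 0.667).

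Transcripts of both enzymes that break down dNTPs fell. DCTPP1 (chromosome 16, 30434936 to 30441351, minus strand), a pyrophosphatase for dCTP and its modified forms, had 429 and 534.9 normalized counts after 4 h and 265.9 and 260.9 after 8 h. The 4 h replicates differed by more than the 8 h replicates, and both were above them. Its log2FC was −0.87 (standard error 0.12, interval −1.13 to −0.61, edgeR adjusted p = 2.04e-05), and without replicate 1 of 4 h it was −1.03 and past the fold threshold, which made 2 DEGs of the 9. SAMHD1 (chromosome 20, 35518632 to 35580296, minus strand), a triphosphohydrolase that lowers dNTP pools outside S phase, had 265.6 and 242.1 after 4 h and 160.6 and 142.9 after 8 h. No 8 h library came near the 4 h libraries, and the log2FC was −0.74 (standard error 0.14, interval −1.04 to −0.44, edgeR adjusted p = 0.000494). RRM2 counts for each SAMHD1 count went from 5.99 and 6.34 to 4.27 and 4.96, a log2 difference of −0.42 (exact two-sided permutation p = 0.333, the smallest possible).

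CTPS1 (chromosome 1, 41444972 to 41478237, plus strand), CTP synthase, had 835.5 and 789.6 normalized counts after 4 h and 644.3 and 546.7 after 8 h. Groups did not overlap, and the log2FC was −0.44 (standard error 0.10, interval −0.65 to −0.24, edgeR adjusted p = 0.00135). Its paralog CTPS2 fell more, from 164.2 and 175.9 to 73.6 and 79.5, with a log2FC of −1.15 (standard error 0.18, interval −1.53 to −0.78, edgeR adjusted p = 5.1e-05), and the intervals of the paralogs do not overlap.

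**Figure D2:**
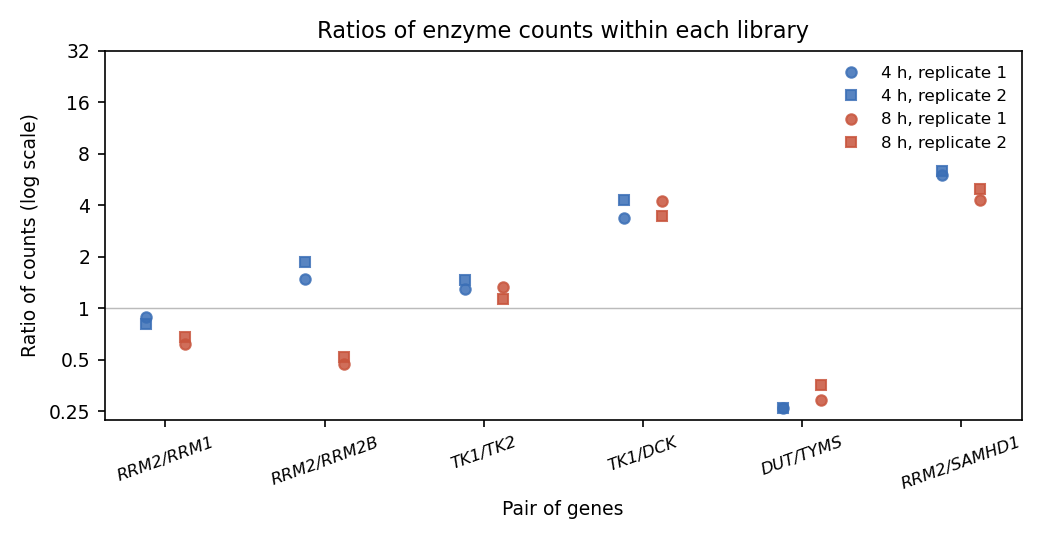
Counts of the first gene divided by those of the second within each library (y axis, log scale) for 6 pairs (x axis), blue for 4 h and red for 8 h, circles for replicate 1 and squares for replicate 2. RRM2 to RRM2B crosses 1 between the times, while TK1 to DCK and TK1 to TK2 overlap.

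Levels per length placed the thymidine enzymes on top. At 4 h the order in CPM per kilobase of canonical transcript was TYMS (150.8), TK1 (82.5), RRM1 (61.1), RRM2 (50.0), DCTPP1 (42.6), CTPS1 (29.8), DUT (29.6), DCK (12.5) and SAMHD1 (5.70). Of these neighbours, CTPS1 and DUT overlapped between their libraries. At 8 h it was TYMS (118.5), TK1 (66.9), RRM1 (35.7), DUT (28.5), DCTPP1 (23.3), RRM2 (22.3), CTPS1 (21.9), DCK (10.0) and SAMHD1 (3.40), where CTPS1 overlapped with RRM2 and with DCTPP1. RRM2 thus went from the fourth to the sixth place and DUT from the seventh to the fourth.

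The mapping sets part of these levels. Bowtie aligned reads without gaps and kept those with 1 position, so a read of 75 bases counts where it lies within 1 exon and has no close copy, approximated here by another place in hg19 with at most 2 mismatches. Of all such read positions on the canonical transcript, 54.0% lie within an exon for CTPS1 and 58.1% for RRM1, against 86.6% for DCTPP1. For RRM2, 19.8% of the positions within exons have such a copy, for RRM2B 12.3%, for SAMHD1 2.07% and for the other 7 enzymes 0%. DUT has 8 named pseudogenes in GENCODE, and none of its positions met this limit. Per kilobase of countable positions, RRM2 had 80.8 and RRM2B 27.4 CPM at 4 h and 36.0 and 41.0 at 8 h, the same order as per transcript length, while DUT came in the fifth place at 8 h behind CTPS1. These shares come from the sequence of the canonical transcript, not from the libraries. Whether reads were lost alike at 4 h and 8 h was not tested. The strand setting of the counting is not given in the sources used here. On the opposite strand, SAMHD1 overlaps TLDC2 by 4007 bases, TYMS overlaps TYMSOS by 698 and RRM2 overlaps MIR4261 by 58. The counts of these partners were not compared. TYMS overlaps ENOSF1 on the opposite strand by 3261 bases, and DCTPP1 lies within ZNF771 on the opposite strand, where both partners were far lower (76.6 and 66.5 mean normalized counts at 4 h and 8 h for ENOSF1, 53.2 and 45.9 for ZNF771). DCK overlaps MOB1B on the same strand by 29912 bases, and MOB1B had 340.3 and 361.4, a level like that of DCK, so the DCK count is uncertain.

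**Figure D3:**
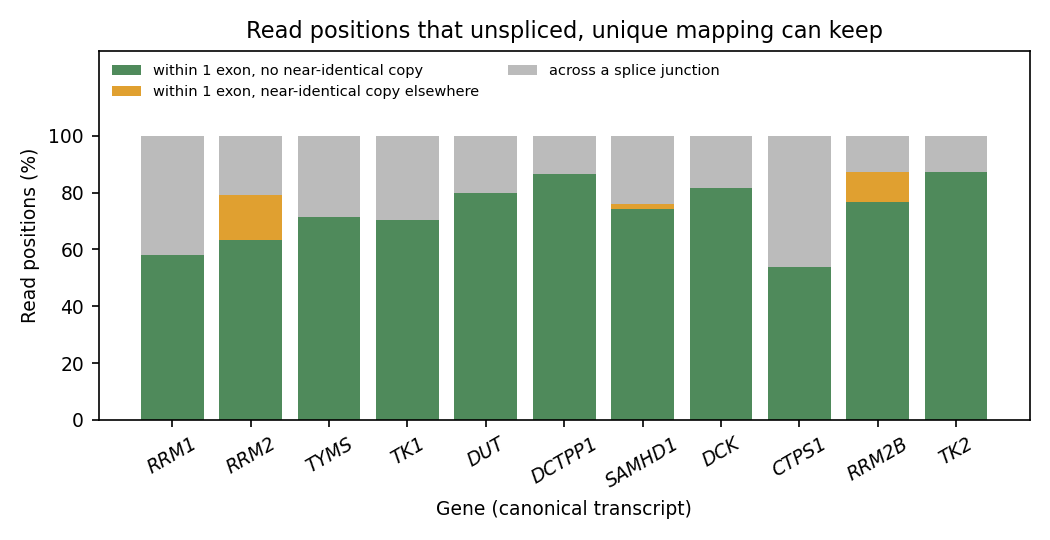
Share of all 75-base read positions on the canonical transcript (y axis, percent) for the 9 enzymes and RRM2B and TK2 (x axis). Green positions lie within an exon and have no near-identical copy, orange ones have such a copy and grey ones cross a splice junction. Orange shows mainly for RRM2 (19.8% of the positions within exons) and RRM2B (12.3%).

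The libraries also differed in genes of the cell cycle, measured here with lists chosen from textbook roles. These lists were chosen with earlier results of these data known, so their counts are not an independent comparison with all genes. All 12 replication genes fell, against 18.8% of all tested genes (median log2FC −1.04), from PCNA, the sliding clamp (−0.40), to FEN1, a flap endonuclease (−1.57), and the 7 DEGs, against 3.88% of all genes, were MCM2, MCM3, MCM6, CDC6, GINS2, PRIM1 and FEN1. All 10 mitosis genes fell too, against the same 18.8% (median log2FC −1.19), from AURKB (−0.60) to CCNB1 (−1.64), and the 8 DEGs, against the same 3.88%, were MKI67, CCNB1, CDK1, TOP2A, BUB1, PLK1, CDC20 and CENPF. Among the enzymes, RRM2, DCTPP1, RRM1 and SAMHD1 lay within the range of both lists, and CTPS1 within that of the replication genes only. The log2FC of TYMS, TK1, DCK and DUT was nearer 0 than that of any gene of the lists, but the interval of PCNA (−0.56 to −0.23) covers TYMS, TK1 and DCK, and the order of PCNA with TYMS and with DCK turned when single libraries were left out. In such bulk RNA, fewer cells in S phase and less of each transcript per cell cannot be told apart, and the part of cell cycle position in the fall of the enzymes was not tested.

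CENPF, which encodes a kinetochore protein, had the pattern closest to that of RRM2. Of 9378 other genes, all with mean normalized counts no lower than 100, the 5 whose log2-CPM, centred on each gene's own mean, lay closest to that of RRM2 over the 4 libraries were CENPF (root mean square distance 0.009), FIGNL1 (0.030), ZNF518A (0.034), NEK2 (0.034) and SCFD2 (0.037). Of the enzymes, DCTPP1 came at place 288, RRM1 at 303 and SAMHD1 at 365, and DUT at 3697. With 4 libraries in 2 groups this likeness mostly restates the size of the change.

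The rest of the pathway was read from a list of 44 further genes, of which 41 were tested. That list, too, was chosen with earlier results of these data known. CMPK2, TYMP and CDA were left out by the filter, with 0 to 6 counts per library. Of the 41, 11 fell and 10 rose, against 18.8% and 19.9% of all tested genes, and the median log2FC was −0.07. With library size alone, 16 fell and 7 rose, where 3289 of all tested genes fell and 1698 rose. The 3 DEGs, SHMT1, UNG and CTPS2, were all lower at 8 h. DESeq2 called the same number of DEGs, 3 lower and 0 higher, where it called 366 lower and 146 higher over all genes.

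In the thymidylate and folate cycle, 3 of 5 genes fell and 1 rose, where 18.8% of all tested genes fell and 19.9% rose. SHMT1, the cytosolic serine hydroxymethyltransferase that charges folate for TYMS, fell most, from 323.1 and 317.3 normalized counts to 110.5 and 106.9 (log2FC −1.56, standard error 0.14, edgeR adjusted p = 1.05e-07). SHMT2, which does the same mainly in mitochondria, rose from 4494 and 4288 to 6314 and 5865 (log2FC 0.47, standard error 0.07, edgeR adjusted p = 4.29e-05). The paralogs moved in opposite directions under every setting tried.

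Of the mitochondrial salvage kinases, DGUOK, the deoxyguanosine kinase, rose (log2FC 0.36, edgeR adjusted p = 0.00417; 0.094 without replicate 1 of 4 h) and TK2 did not pass. Among 7 tested nucleotide kinases, 2 rose and 0 fell with edgeR, where 19.9% of all tested genes rose and 18.8% fell. At an unadjusted edgeR p below 0.05, 3 were higher and 0 lower, and the share of all genes at that limit is not given. Limma-voom called 2 higher and DESeq2 1, with 0 lower for both. Values ran from NME1 (log2FC −0.09, not passed) to NME3 (log2FC 0.51, edgeR adjusted p = 0.0283). NME3 lost its call under 5 of 12 settings and had a log2FC of 0.23 without replicate 2 of 8 h. NME2 is listed with 13 to 20 counts per library and is a close paralog of NME1. How reads of the pair were assigned was not tested, and its value is uncertain.

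Among 7 tested genes of pool cleaning and breakdown, 2 fell and 1 rose with edgeR, and 1 fell and 0 rose with DESeq2. Of all tested genes, 18.8% fell and 19.9% rose with edgeR. UNG, which removes uracil from DNA, fell from 485.5 and 488.6 to 221.9 and 259.7 normalized counts (log2FC −1.02, standard error 0.12, edgeR adjusted p = 1.63e-06), while DUT, which keeps uracil out, did not pass. DNPH1, a hydrolase of hydroxymethyl-dUMP, rose (log2FC 0.51, edgeR adjusted p = 0.0293), with an adjusted p of up to 0.207 when 1 library was left out, 0.117 with DESeq2 and 0.0766 with library size alone. In pyrimidine ribonucleotide supply, 2 of 6 genes fell and 1 rose with edgeR, against the same shares, and 1 fell and 1 rose with DESeq2. UCK2, a uridine and cytidine salvage kinase, rose from 623.7 and 726.2 to 1258 and 1306 (log2FC 0.93, standard error 0.09, edgeR adjusted p = 2.41e-07), and CAD, the first enzyme of the de novo route, did not pass (log2FC −0.07). In purine ribonucleotide supply, 4 of 10 genes fell with edgeR, against the same 18.8% of all genes (3 fell with DESeq2). With edgeR, limma-voom or DESeq2, 0 rose, where 1, ADSS2, was higher at an unadjusted edgeR p below 0.05. PFAS fell most (log2FC −0.83, standard error 0.12, edgeR adjusted p = 3.54e-05), and ADSS2 had the highest value (0.29, edgeR adjusted p = 0.0934, not passed). ADSS2 rests on single libraries and the block. It passed without replicate 1 of 4 h (0.56, edgeR adjusted p = 0.00959), without replicate 2 of 8 h (0.36, adjusted p = 0.0182) and with the replicate block (0.29, adjusted p = 0.0138), and without replicate 2 of 4 h it was 0.06.

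**Figure D4:**
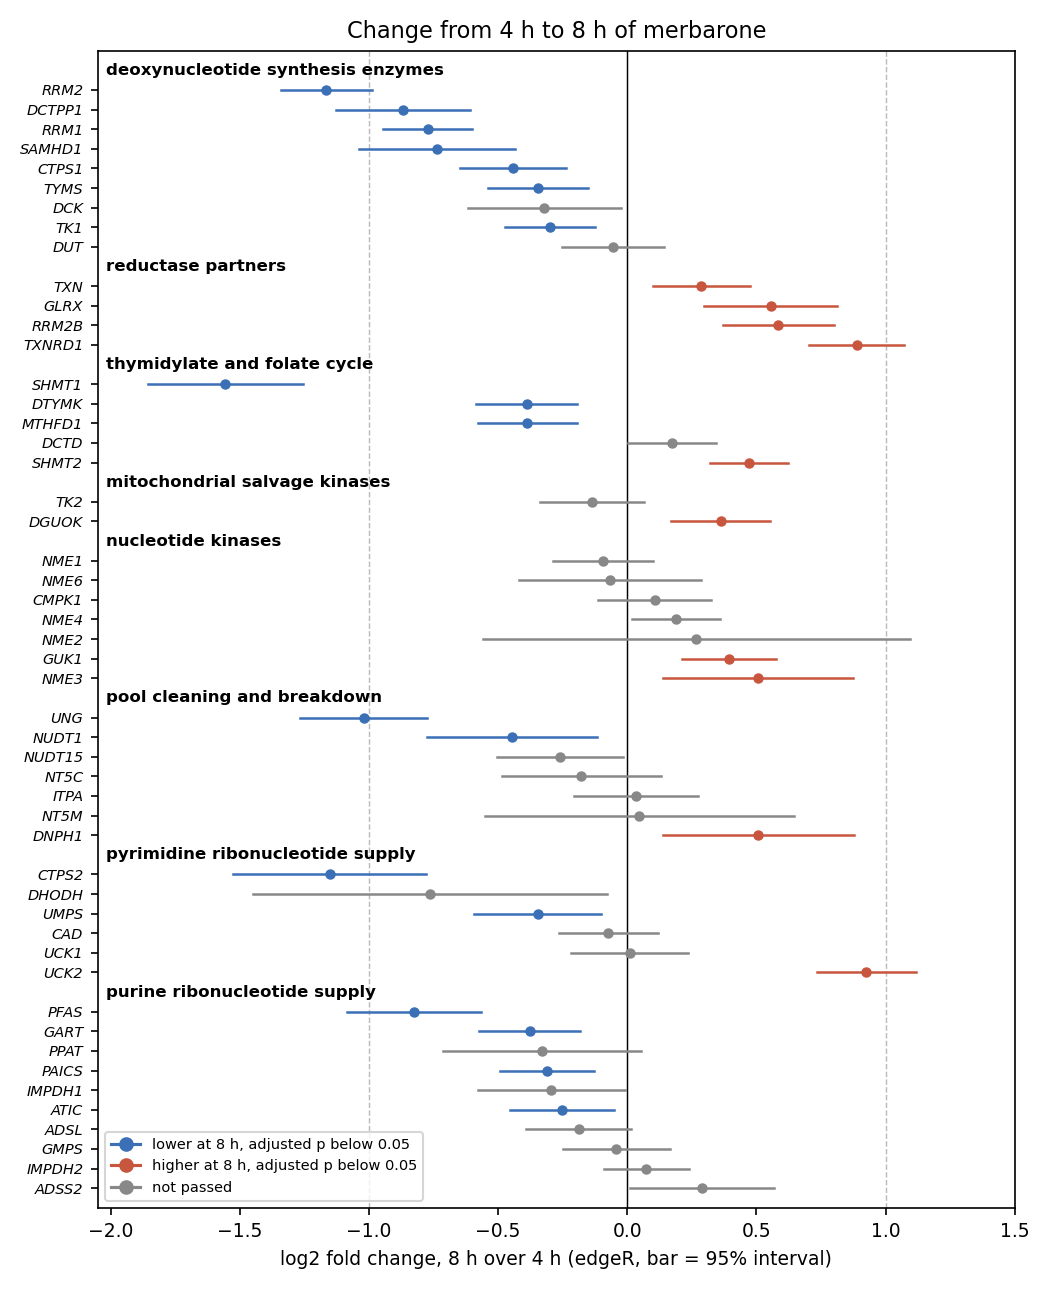
Log2 fold change from 4 h to 8 h (x axis) with 95% intervals for the 9 enzymes and the 41 tested genes of the rest of the pathway, grouped by role (y axis), blue where the gene fell, red where it rose and grey where it did not pass. RRM2, SHMT1, UNG and CTPS2 lie beyond the dashed line at −1, and the 4 reductase partners lie to the right of 0.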

How the data were processed

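RNA-Seq of 4 libraries (2 at 4 h, 2 at 8 h of 200 μM merbarone) was prepared from 150 ng of total RNA. The authors mapped single reads to hg19 with Bowtie 1.2.0, kept those with 1 position, and deposited raw counts per gene by NCBI Gene identifier, not filtered or normalized. The annotation, counter and strand setting are not given in the sources used here. Times and replicates came from the sample titles. Symbols came from RefSeq (23308 of 23459 matched), hg19 positions and canonical transcripts from GENCODE.

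Genes with a CPM above 1 in 2 libraries were normalized by TMM and tested with edgeR 4.0.16 in R 4.3.3, adjusting over all of them; intervals are 95%. Limma-voom (limma 3.58.1), DESeq2 1.42.0, other scalings and filters, a trend correction, glmTreat, a replicate block and leaving out each library were alternatives. Tests were checked on simulated counts, for DEG calls only and with changes beyond the DEG threshold. That check does not cover smaller changes called by adjusted p alone. Close copies of 75-base positions were found with blastn 2.17.0 (at most 2 mismatches). The enzymes and lists were chosen with earlier results of these data known. The genes named are the 9 enzymes, RRM2B, TK2, and of each list the DEGs and the highest and lowest log2FC. Other names (CAD, NME2, ENOSF1, ZNF771, MOB1B) were added after their values were seen. TLDC2, TYMSOS and MIR4261 are named for their overlap alone. Some items of the lists as first written are left out of the counts, whatever their values, and not reported here; the reductase partner, replication and mitosis lists are whole. Intervals cover the spread between these libraries, and read counts without molecular identifiers are not independent molecules.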

Additional observations from a re-analysis of the deposited data

How the results depend on the processing

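Of 108 values of the 9 enzymes over 12 settings, 100 kept their direction and their side of the threshold, and none turned its direction. RRM2, RRM1, DCTPP1, SAMHD1 and CTPS1 fell and DUT did not pass under all 12. The log2FC of RRM2 ran from −1.27 to −1.14. With glmTreat, which tests for a change beyond a log2FC of 1, the number of DEGs among the 9 was 0 in place of 1. Over all tested genes, glmTreat gave 58 DEGs lower in place of 487, and 26 higher in place of 182. Calls over all genes moved with the setting too, also with 1 library left out. With all 4 libraries kept, genes lower ran from 1498 (DESeq2) to 3289 (library size alone). The number of enzymes that fell ran from 5 to 7 with 1 library left out and from 7 to 8 otherwise, and that of DEGs from 1 to 2 with 1 library left out. In the rest of the pathway, leaving out 1 library gave 7 to 11 genes that fell, 6 to 10 that rose and 0 to 1 DEGs higher, in place of 11, 10 and 0, and in these fits the lone library is assumed to vary like the others. The TK1 to DCK ratio had a log2 difference from −0.168 to 0.184 with 1 library left out and turned sign, at −0.168 without replicate 1 of 4 h and −0.141 without replicate 1 of 8 h, in place of 0.008. Depth limits NME2, DHODH and NT5M. Replicate numbers are shared by the times, but same-numbered libraries did not deviate together (correlation 0.048 across 12559 genes, 2 pairs). With the replicate block, 8 enzymes fell, DCK added (log2FC −0.32, edgeR adjusted p = 0.0357), and the RRM2 to RRM2B difference was −1.76. In the rest of the pathway, 13 genes fell and 12 rose with the block. Of all 12559 tested genes, 2664 fell and 2829 rose with it, in place of 2367 and 2500. The cause of these differences between settings was not tested, except that a lone library leaves fewer samples.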
